A study of Mus musculus with 3 samples.

Results

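Genes of the enzymes that write, maintain and remove DNA methylation were followed by RNA sequencing in mouse JB6 P+ cells. They are the methyltransferase genes Dnmt1, Dnmt3a and Dnmt3b, the hemimethylation readers Uhrf1 and Uhrf2, the dioxygenase genes Tet1, Tet2 and Tet3, and the glycosylase genes Tdg and Mbd4. They were chosen by name, all 10 were found among the 24421 genes of the count table, and 9 had a level of at least 1 CPM (a gene's reads scaled to a common library size) in at least 1 library, as did 13100 genes in all. There were 3 groups with 1 library each. CDDO+TPA cells received 50 nM of the synthetic oleanane triterpenoid CDDO, a known NRF2 activator, together with 10 ng/mL of the phorbol ester TPA, a protein kinase C activator and tumour promoter. TPA cells received 10 ng/mL TPA alone, and control cells neither agent. Both treatments were given every second day over 5 days in medium with 1% serum, after growth in 10% serum. The serum, duration and vehicle of the control culture are not given in the sources used here, so differences from control cannot be told apart from those factors. JB6 P+ is an established epidermal line in which phorbol ester promotes transformation.

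The CDDO+TPA, TPA and control libraries held 7872089, 7813035 and 8190078 reads assigned to genes. With 1 library per group there was no test against the spread between cultures, and every interval below is a 95% interval for counting error only. The size rule used throughout asked for a log2 fold change of 1 or more in either direction and for a CPM ratio whose counting interval left out 1. The line is labelled as skin epithelium, but of 13 keratinocyte markers only 3 reached 1 CPM, with summed levels of 11.8, 33.9 and 17.7 CPM in CDDO+TPA, TPA and control, and Krt5, Krt1, Krt15 and Epcam had no read. The 3 keratinocyte markers that reached it were Krt10, Dsp and Itgb4, the last at 3.29, 23.2 and 2.87 CPM. Of 11 fibroblast markers 9 reached 1 CPM, and they summed to 2450, 1990 and 3040 CPM. Of these sums, Fn1 alone made up 1390, 1090 and 1520 CPM. Thy1 and Lum had 1 read each in CDDO+TPA and none in TPA or control.

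In mammals DNMT1 copies methylation onto the new DNA strand after replication, guided by UHRF1, which binds hemimethylated CpG sites. DNMT3A and DNMT3B place methylation at sites that carried none. TET enzymes oxidise 5-methylcytosine, and TDG and MBD4 excise modified or mismatched bases, which base excision repair then replaces with cytosine. Dnmt1 and Uhrf1 are known as genes of proliferating cells, so their RNA depends on how many cells are in S phase as well as on regulation in each cell.

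Uhrf1 and Dnmt1 differed in one direction, and Tet3 and Tet2 in the other. In CDDO+TPA, Uhrf1 was 3.83-fold higher (3.33 to 4.41) than in TPA and Dnmt1 1.95-fold higher (1.80 to 2.12), whereas Tet3 was 3.22-fold lower (2.94 to 3.53) and Tet2 2.11-fold lower (1.58 to 2.83). Uhrf2, Dnmt3a, Dnmt3b and Mbd4 stayed below the size rule in all 3 comparisons. Between TPA and control none of the 9 measured genes was past the rule. In these bulk libraries, more cells that express a gene and more RNA per cell cannot be told apart.

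**Figure D1:**
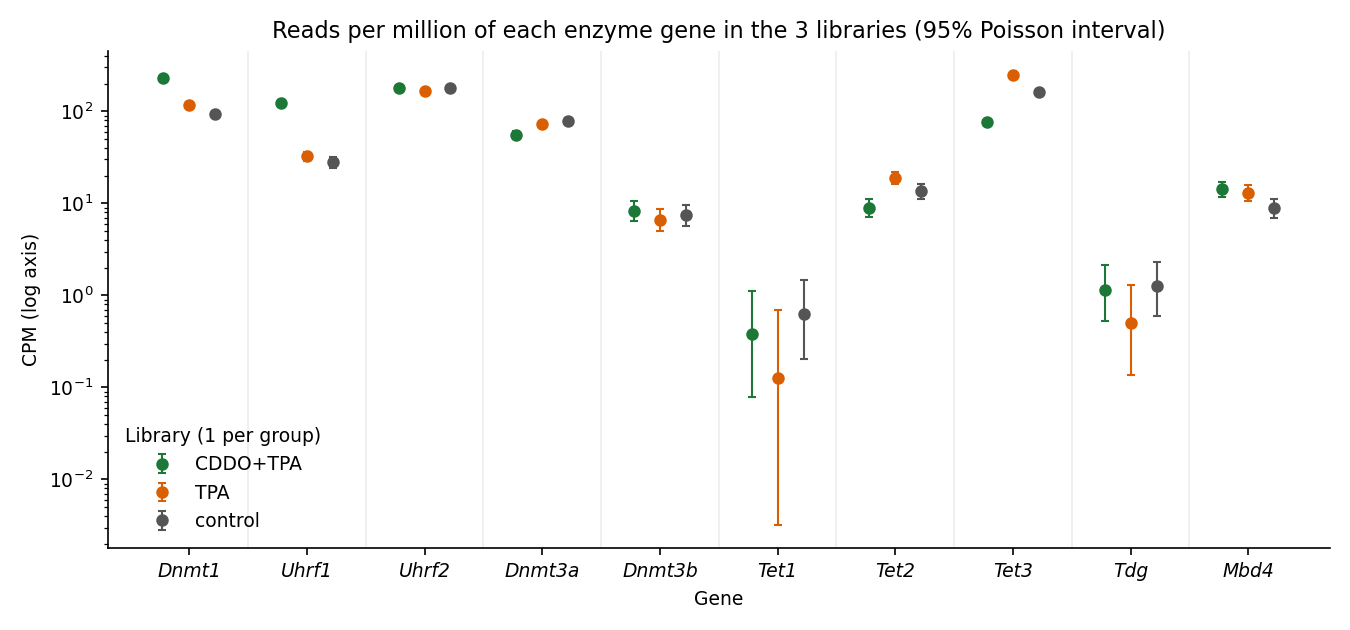
Level of each of the 10 genes in CPM (log axis) in the CDDO+TPA, TPA and control libraries; points are single libraries and bars are exact 95% Poisson intervals. Uhrf1 stood at 124 CPM in CDDO+TPA, against 32.4 in TPA and 28 in control, while Tet3 stood at 77.0, against 248 and 162.

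Read against the background, 3 of the 9 measured genes (33.3%) were past the size rule in CDDO+TPA over TPA, against 15.6% of all 13100 genes: Uhrf1 was higher (background 7.87%), and Tet2 and Tet3 were lower (background 7.78%). Dnmt1, at a log2 fold change of 0.96, lay just short of the rule, and Tet2, at -1.05, just past it. In CDDO+TPA over control, 3 of 9 were again past the rule, against 11.4% of all genes, with Dnmt1 and Uhrf1 higher (background 8.02%) and Tet3 lower (background 3.37%). In TPA over control the count was 0 of 9, against 15.5% of all genes (9.57% higher and 5.91% lower). The median log2 fold change of the 9 was 0.13, 0.00 and 0.21 in these 3 comparisons, against 0.01, -0.02 and 0.00 over all measured genes. Tdg is 1 of the 9 and enters these counts and medians, although its reads do not measure its level, as set out below. The small medians stand beside members at both ends of the distribution: in CDDO+TPA over TPA, Uhrf1 lay at percentile 97.7 of the log2 fold changes and Tet3 at percentile 4.70. The comparisons share libraries, so their values for a gene are not independent of each other.

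**Figure D2:**
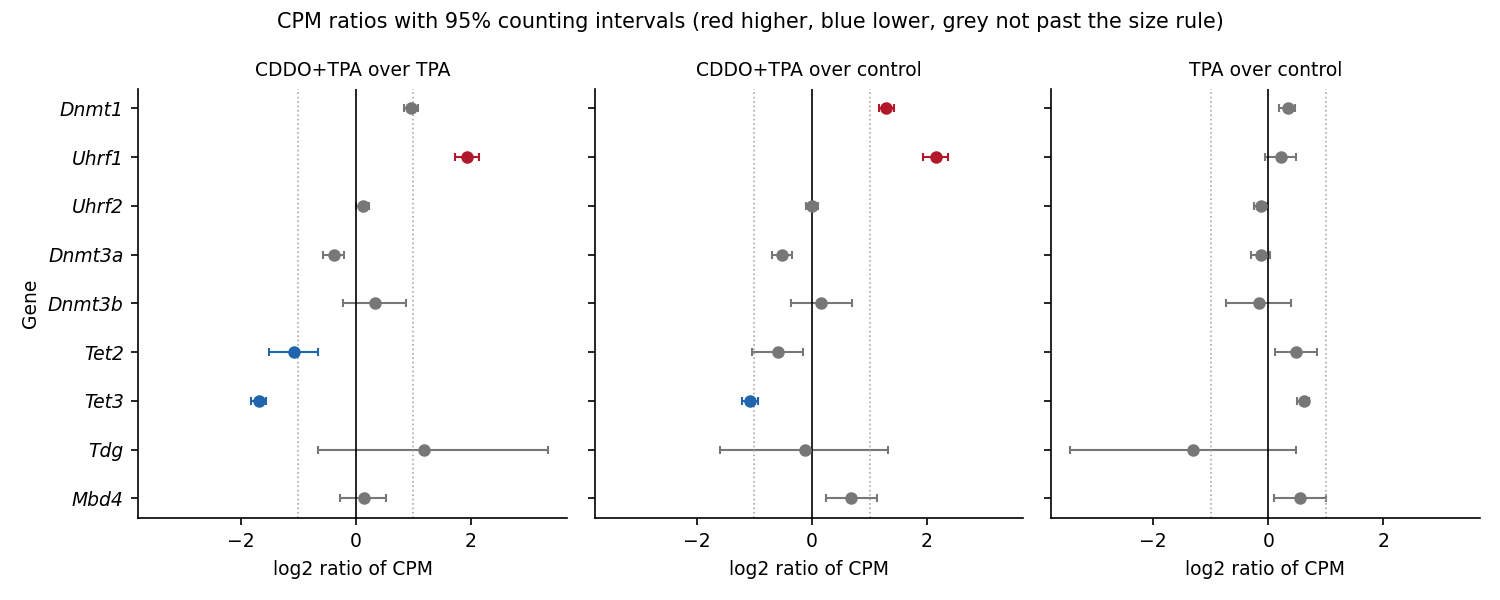
Log2 ratio of CPM for the 9 measured genes in each comparison, with 95% counting intervals; dotted lines mark a log2 value of 1 in size. Red points are higher and blue points lower past the size rule, and no point of the TPA over control panel is coloured.

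Dnmt1, the maintenance methyltransferase gene (chromosome 9, 20907206 to 20959888, minus strand in mm10, 41 merged exons), had 1810 reads in CDDO+TPA, 935 in TPA and 749 in control. These were 229, 117 and 93.5 CPM, with CDDO+TPA highest and the counting intervals of the 3 libraries apart. The gene was 2.45-fold higher (2.25 to 2.68) in CDDO+TPA than in control, and 1.26-fold higher (1.14 to 1.38) in TPA than in control. Uhrf1, whose protein recruits DNMT1 to replicated DNA (chromosome 17, 56303337 to 56323486, plus strand), had 978, 258 and 224 reads in CDDO+TPA, TPA and control. At 124, 32.4 and 28 CPM it had the widest range of the members with a mean of at least 10 CPM, a log2 span of 2.14. CDDO+TPA was 4.43-fold above control (3.83 to 5.15), whereas the TPA over control ratio of 1.16 (0.965 to 1.39) did not exclude 1. A processed pseudogene, Gm5648, matched 1590 bases of the Uhrf1 transcript at 98.3% identity, so some Uhrf1 reads may be placed at that locus, which was not analysed here. Uhrf2, a paralogue with a similar domain layout (chromosome 19, 30030513 to 30093724, plus strand), had 1426, 1317 and 1452 reads. Its CPM values of 181, 165 and 181 in CDDO+TPA, TPA and control spanned 0.13 on the log2 scale, the narrowest span among the members with a mean of at least 10 CPM.

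Promoter sequence is shown for the genes past the size rule in either comparison with CDDO+TPA, because Dnmt1 and Uhrf1 differed in the same direction. RefSeq windows of GRCm38.p6 (250 bases before to 50 after an annotated start, 300 in all) were searched on both strands for E2F letters (TTTCGCGC, TTTGGCGC or TTTCCCGC), the NRF2 core TGACNNNGC and the AP-1 element TGANTCA; the E2F words share letters with one another and were counted as 1 motif. E2F factors drive S phase genes, NRF2 the antioxidant response, and AP-1 is the classical target of phorbol esters. Windows of all 10 members were matched. E2F letters stood in windows of Dnmt1 and Uhrf1 and of no other member, against 1.84% of 32851 windows and 3.98% of the 9870 measured genes with a window. Each E2F word contains a CpG and the median window held 7 CpG sites, so these shares are not matched for CpG content. Genes with several starts, such as Dnmt1 and Uhrf1, also had more windows searched than Tet2 or Tet3. The NRF2 core stood in the Tet1 window alone among the members (12.4% of all windows), and AP-1 letters in none (7.81%). That Tet1 window, chr10:62887275-62887574, lies outside the span in which Tet1 reads were counted, which ends at 62880014. The Uhrf1 stretch is the 250 bases before the downstream of its 2 starts, on the plus strand of chr17:56304063-56304312, with the E2F match in capitals starting 185 bases before the start.
Uhrf1: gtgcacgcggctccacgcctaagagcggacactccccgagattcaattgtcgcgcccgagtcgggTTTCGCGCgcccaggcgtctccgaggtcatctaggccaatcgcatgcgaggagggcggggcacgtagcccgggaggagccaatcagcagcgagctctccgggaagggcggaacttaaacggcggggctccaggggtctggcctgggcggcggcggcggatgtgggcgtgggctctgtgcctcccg
The 2 Dnmt1 matches, both in the window of the most downstream of 3 starts, lie within annotated untranslated exon sequence and are shown as 30 bases each, from the minus strand of chr9:20952824-20952853 and chr9:20952574-20952603, with the match in capitals.
Dnmt1 upstream match: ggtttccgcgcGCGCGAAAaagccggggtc
Dnmt1 downstream match: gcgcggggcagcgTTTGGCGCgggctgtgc
The Tet2 and Tet3 stretches, for contrast, are the 250 bases before their starts on the minus strands of chr3:133544391-133544640 and chr6:83441679-83441928, with none of the 3 motifs and so no capitals.
Tet2: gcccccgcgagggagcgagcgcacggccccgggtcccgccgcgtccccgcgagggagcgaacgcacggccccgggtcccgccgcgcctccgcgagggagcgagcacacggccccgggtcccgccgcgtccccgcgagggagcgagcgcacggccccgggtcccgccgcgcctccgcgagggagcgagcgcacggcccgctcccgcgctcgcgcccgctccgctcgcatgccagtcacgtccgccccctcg
Tet3: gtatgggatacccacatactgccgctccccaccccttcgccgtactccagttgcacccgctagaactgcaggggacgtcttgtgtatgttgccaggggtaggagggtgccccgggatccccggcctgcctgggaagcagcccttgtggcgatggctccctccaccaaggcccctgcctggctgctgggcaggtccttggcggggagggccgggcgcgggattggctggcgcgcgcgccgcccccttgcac
A match is a run of letters and not a bound site. The windows of Tet2 and Tet3 held 57 and 22 CpG sites, at percentiles 99.8 and 76.9 of all windows, against 33 each in the matched windows of Dnmt1 and Uhrf1 at percentile 91.4.

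In CDDO+TPA over TPA, genes of S phase and proliferation moved with the maintenance pair, and their part in the difference was not tested. Of a list of 25 such genes, all measured, 15 were higher and 0 lower in CDDO+TPA over TPA, against 7.87% and 7.78% of all genes, with a median log2 fold change of 1.14. Their summed level was 3290 CPM in CDDO+TPA, 1510 in TPA and 1550 in control. Mki67, a proliferation marker, had 459, 85.2 and 162 CPM, and Cdc6, a replication licensing factor, had 38.0, 7.16 and 10.7 CPM in CDDO+TPA, TPA and control. Top2a, a topoisomerase of dividing cells, had 381, 69.4 and 171 CPM, and Rrm2, a ribonucleotide reductase subunit, had 88.7, 17.6 and 26.8 CPM. In TPA over control 3 genes of the list were higher and 1 was lower, near the 9.57% and 5.91% of all genes. The higher ones included the cyclin gene Ccne2 (22.2, 15.7 and 3.37 CPM), which shares 53.9% of its exonic bases with Ints8, and the replication factor gene Gins2 (23.7, 17.8 and 6.49 CPM), and the lower one was Top2a. Against control, CDDO+TPA was also higher for Ccne1 (25.7, 7.53 and 4.87 CPM) and E2f2 (12.7, 5.65 and 3.00 CPM). The list was not uniform, since Mcm2, a subunit of the replicative helicase, had 179, 138 and 177 CPM. Pcna, the replication clamp to which DNMT1 binds and a gene of the partner list, had 132, 129 and 105 CPM. Set against the summed reads of this list, which contains neither gene, the reads of Dnmt1 came to 6.98% of that sum in CDDO+TPA, 7.76% in TPA and 6.05% in control. Those of Uhrf1 came to 3.77% of the sum in CDDO+TPA, against 2.14% in TPA and 1.81% in control, so its ratio to TPA was larger than that of the summed list. The sum includes Top2a and Mki67, whose log2 fold changes of 2.45 and 2.42 were the largest of the list in CDDO+TPA over TPA. Such shares therefore depend on the make-up of the list, and whether Dnmt1 rose less than S phase genes alone was not tested. Within each library, Uhrf1 had 0.746 reads per kilobase for each of Mki67 in CDDO+TPA (0.694 to 0.801), 1.05 in TPA (0.905 to 1.21) and 0.475 in control (0.410 to 0.548). For each of Mcm2, Uhrf1 had 0.64 in CDDO+TPA (0.59 to 0.695), 0.216 in TPA and 0.146 in control. For each of Pcna, Uhrf1 had 0.324 (0.297 to 0.354), 0.0864 and 0.092. Dnmt1 had 0.686, 0.454 and 0.282 for each of Mcm2, and 0.347, 0.181 and 0.178 for each of Pcna. Such ratios depend on the gene set against Uhrf1 or Dnmt1. E2f1, the S phase transcription factor gene, had 92.4, 62.4 and 49 CPM and was below the size rule in every comparison. E2F letters stood in a window of 10 of the 20 measured list genes that had one. The share among all 9870 measured genes with a window was 3.98%. Neither share was matched for CpG content or for the number of windows per gene.

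**Figure D3:**
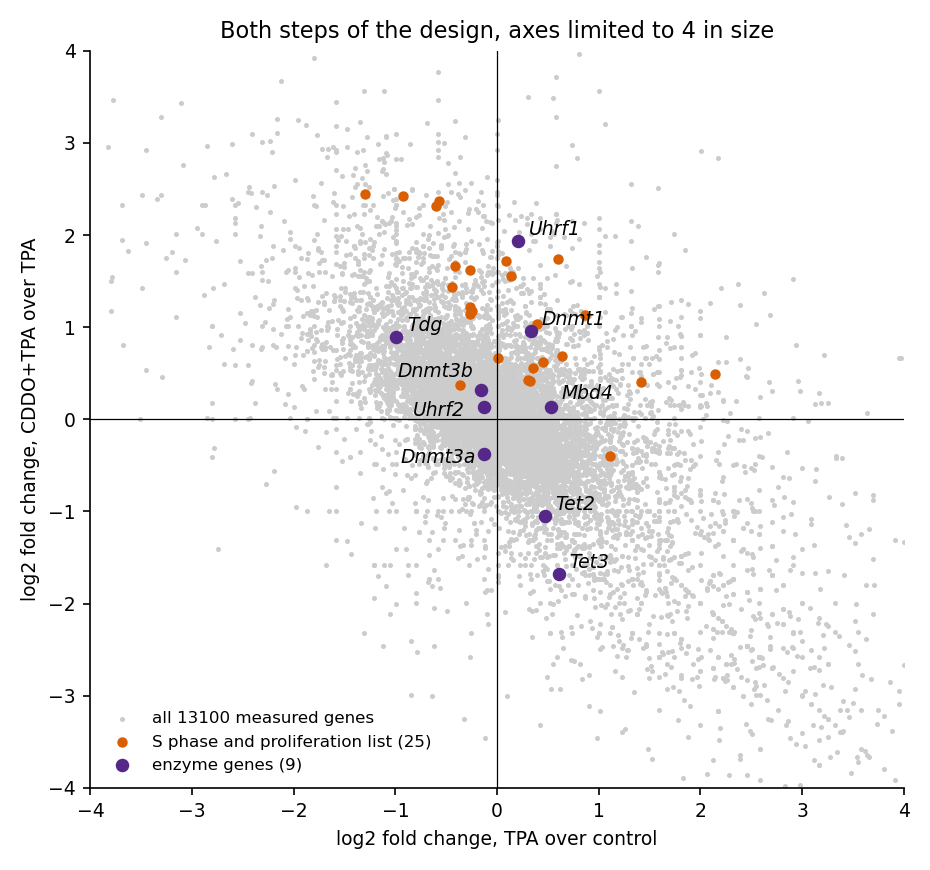
Log2 fold change of TPA over control (x) and of CDDO+TPA over TPA (y). The 13100 measured genes are grey, the 25 S phase and proliferation genes orange and the 9 measured enzyme genes purple. The axes leave out 80 genes. Both axes contain the TPA library, with opposite sign, so the slope of the grey cloud is partly built in; Uhrf1 and Dnmt1 sit among the orange points and Tet3 and Tet2 on the opposite side.

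By distance between their pairs of log2 fold changes (TPA over control, CDDO+TPA over TPA), the genes nearest to Uhrf1 among 9889 searched were Glt8d2, Gm2115 and Mybl2, at 0.098, 0.144 and 0.158 log2 units. Glt8d2 is the gene that shares 62 exonic bases with Tdg. Mybl2, an E2F-responsive transcription factor gene, had 45.5, 11.7 and 8.99 CPM in CDDO+TPA, TPA and control. The nearest to Dnmt1 were Fbxo5, an inhibitor of the anaphase-promoting complex, at 0.041, Srxn1, the sulfiredoxin gene and an NRF2 target, at 0.056, and Dock4, a Rac exchange factor, at 0.071. Fbxo5 had 32.8, 16.8 and 13.7 CPM and Srxn1 had 168, 82.9 and 67.0 CPM. With 3 libraries many genes share a pattern, and nothing is read from this likeness.

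The de novo methyltransferase genes differed less. Dnmt3a (chromosome 12, 3806980 to 3914443, plus strand) had 437 reads in CDDO+TPA, 576 in TPA and 635 in control. At 55.4, 72.3 and 79.2 CPM it was lowest in CDDO+TPA, by 1.31-fold against TPA (1.15 to 1.48) and 1.43-fold against control (1.27 to 1.62), below the size rule in both. Its antisense partner Dnmt3aos, on the other strand, had no read in any library and no exonic base in common with it. Dnmt3b (chromosome 2, 153649449 to 153687730, plus strand) had 66, 53 and 60 reads, or 8.36, 6.65 and 7.49 CPM. No difference was detectable at this depth, since the CDDO+TPA over TPA ratio of 1.26 had an interval of 0.862 to 1.84. Its transcript matched the rodent paralogue Dnmt3c over 1434 bases at 93.9% identity, so reads of the pair may be mixed. Dnmt3l, the catalytically inactive cofactor of the de novo enzymes, had 1, 1 and 9 reads. Its ratio, 8.86-fold lower in CDDO+TPA than in control with an interval of 1.23 to 389, rests on 1 read in CDDO+TPA and gives no usable size.

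Tet3 (chromosome 6, 83362374 to 83441678, minus strand) was the most abundant TET gene in all 3 libraries per length of transcript. It had 608 reads in CDDO+TPA, 1976 in TPA and 1301 in control, which were 77.0, 248 and 162 CPM. CDDO+TPA was lowest and TPA highest, with no overlap of counting intervals, and CDDO+TPA was 2.11-fold below control (1.91 to 2.32). TPA was 1.53-fold above control (1.42 to 1.64), below the size rule. Tet2 (chromosome 3, 133463677 to 133544390, minus strand) had 71, 151 and 109 reads, or 9, 19 and 13.6 CPM, in the same order of libraries as Tet3. Against control, Tet2 was 1.51-fold lower in CDDO+TPA (1.11 to 2.07) and 1.39-fold higher in TPA (1.08 to 1.80). Tet1 (chromosome 10, 62804570 to 62880014, minus strand) had 3, 1 and 5 reads on 14082 exonic bases and did not reach 1 CPM. The first 2 of these counts lie at or under a floor of 3 counts, which was 0.380 CPM in CDDO+TPA and 0.377 CPM in TPA, so no fold is given between them. Against control the ratios were 0.609 (0.0946 to 3.13) in CDDO+TPA and 0.201 (0.00425 to 1.80) in TPA, and neither interval excluded 1.

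Of the glycosylase genes, Mbd4 (chromosome 6, 115840697 to 115853341, minus strand) had 112 reads in CDDO+TPA, 103 in TPA and 71 in control. Its 14.2, 12.9 and 8.86 CPM put both treated libraries above control, by 1.60-fold (1.18 to 2.19) in CDDO+TPA and 1.46-fold (1.07 to 2.00) in TPA, below the size rule. A part of its transcript, 481 of 3614 bases, matched 1536 other genes at 90% identity or more, so a share of its reads is uncertain. Tdg (chromosome 10, 82629838 to 82650494, plus strand) had 9, 4 and 10 reads. These counts do not measure its level: in the annotation behind the table, the pseudogene symbol Gm9855 is also placed at this locus and shares 2898 of the 3218 exonic bases of Tdg, and Glt8d2 on the other strand shares another 62. Only 258 bases belong to Tdg alone, Gm9855 had no read in any library, and the command in the header names no option to count reads that fall on more than 1 gene. The Tdg transcript also matched the pseudogene Tdg-ps over 2968 bases at 98.7% identity. No other member shared an exonic base with another gene of the table.

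Per length of transcript, in RPKM (CPM divided by the exonic length in kilobases), the order of the members changed between libraries. In CDDO+TPA Uhrf2 was first at 51.1 RPKM, followed by Dnmt1 at 36.4 and Uhrf1 at 33.9, whose intervals overlapped, and then by Tet3 at 7.06, Dnmt3a at 5.57, Mbd4 at 3.96, Dnmt3b at 1.93 and Tet2 at 0.980. In TPA Uhrf2 was again first, at 46.7 RPKM, but Tet3 was second at 22.7, above Dnmt1 at 18.6 and Uhrf1 at 8.87; the neighbours Uhrf1 and Dnmt3a (7.27), and Tet2 (2.06) and Dnmt3b (1.54), had overlapping intervals, with Mbd4 between these pairs at 3.61. In control Uhrf2 stood at 51.2 RPKM, Tet3 at 14.9 and Dnmt1 at 14.8 could not be told apart, nor could Dnmt3a at 7.97 and Uhrf1 at 7.66, and the interval of Dnmt3b (1.73) overlapped those of its neighbours Mbd4 (2.47) and Tet2 (1.48). Tdg and Tet1 came last in each library. Dnmt1 stood at percentile 75.2 of the measured genes by RPKM in CDDO+TPA, against 53.9 in TPA and 46.7 in control, while Tet3 stood at 30.9, against 60.1 and 46.8.

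Ratios between members within a library do not depend on library scaling. The pairs were chosen after the values were seen. Dnmt1 had 5.15 reads per kilobase for each of Tet3 in CDDO+TPA (4.70 to 5.66), 0.819 in TPA (0.757 to 0.885) and 0.996 in control (0.909 to 1.09). The balance of these genes thus lay on the side of Dnmt1 in CDDO+TPA and slightly on that of Tet3 in TPA. The ratio of Dnmt1 to Dnmt3a was 6.54 in CDDO+TPA (5.88 to 7.27), 2.56 in TPA (2.31 to 2.85) and 1.86 in control (1.67 to 2.07). Uhrf1 to Uhrf2 was 0.665, 0.190 and 0.149 in the same libraries, so Uhrf2 stayed the more abundant paralogue throughout. Dnmt1 to Uhrf1 was 1.07 in CDDO+TPA (0.991 to 1.16), below 2.10 in TPA and 1.94 in control. Tet3 to Tet2 was 7.21 in CDDO+TPA (5.63 to 9.35), with an interval that touched those of TPA (11, 9.33 to 13.1) and control (10, 8.26 to 12.3).

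**Figure D4:**
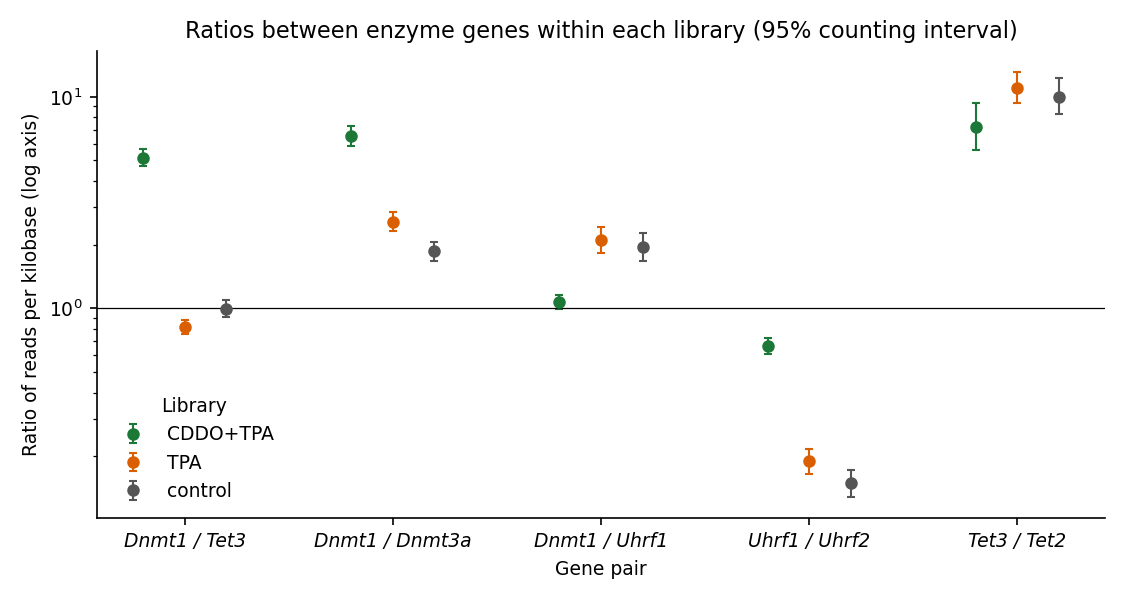
Ratio of reads per kilobase between pairs of enzyme genes within the CDDO+TPA, TPA and control libraries (log axis), with 95% counting intervals; the line marks a ratio of 1. Dnmt1 to Tet3 lies at 5.15 in CDDO+TPA, against 0.819 in TPA and 0.996 in control.

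Few genes of proteins that read or assist methylation were past the size rule, but in lists this short a low count is not taken as a result. None of 9 methyl-CpG reader genes passed it in any comparison. The shares of all genes were 15.6% in CDDO+TPA over TPA, 11.4% in CDDO+TPA over control and 15.5% in TPA over control. The median log2 fold change of the readers in CDDO+TPA over TPA was -0.01. Mbd2, a reader and a subunit of the NuRD corepressor, had 110, 125 and 137 CPM in CDDO+TPA, TPA and control. Of 10 measured partners of the methyltransferases, 0 were past the rule in CDDO+TPA over TPA, against 15.6% of all genes, with a median of -0.11. Hells, a remodeller needed for DNA methylation, came closest, at 148, 77.7 and 84.1 CPM and a log2 fold change of 0.93. Its reads came to 4.51%, 5.14% and 5.44% of the summed reads of the S phase and proliferation list, which does not contain it. These shares too depend on the make-up of that list. Zfp57, a zinc finger protein that guards methylation at imprinted loci, had 103 CPM in CDDO+TPA, against 190 in TPA and 116 in control, a log2 fold change of -0.88 against TPA.

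Of 10 measured cofactors and regulators of the TET reaction, 3 were higher and 1 lower in TPA over control, against 9.57% and 5.91% of all genes. In CDDO+TPA over TPA 0 were higher and 1 lower, against 7.87% and 7.78% of all genes. Gadd45g, a stress gene linked to active demethylation, had 20.8, 53.9 and 5.99 CPM in CDDO+TPA, TPA and control, and Gadd45a, of the same family, had 77.9, 51.7 and 113 CPM. Cxxc5, a CpG-binding protein related to a TET partner, had 27.0, 45.6 and 22.3 CPM. Idh1 and Idh2 make the TET cosubstrate 2-oxoglutarate in the cytosol and in mitochondria. Idh1 had 32.9, 16.6 and 33.1 CPM and was below the rule in all comparisons, while Idh2 had 109, 94.8 and 52.9 CPM and was 2.05-fold above control in CDDO+TPA (1.82 to 2.31). Ogt, which encodes a glycosyltransferase that binds TET proteins, had 344, 469 and 453 CPM.

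In base excision repair, which completes demethylation, 1 of 12 measured genes was higher and 2 were lower in CDDO+TPA over TPA, against 7.87% and 7.78% of all genes, with a median of 0.14. The NEIL glycosylase genes went in different directions. Neil3 had 28.4 CPM in CDDO+TPA, against 6.15 in TPA and 3.99 in control, and was 4.61-fold above TPA (3.37 to 6.42). Neil1 had 4.31 CPM, against 10.5 and 3.37, and was 2.45-fold below TPA (1.63 to 3.76). Neil2 had 0, 16 and 7 reads. With the CDDO+TPA count set to a floor of 3, it was 5.28-fold lower in CDDO+TPA than in TPA. The counting interval of that ratio began at 3.82-fold lower. Parp1, a strand break sensor, had 159, 80.0 and 74.5 CPM and was past the rule against control at 2.13-fold (1.93 to 2.35), as was Ogg1, the 8-oxoguanine glycosylase gene, at 2.31-fold (1.79 to 3.01). Among 3 measured cytosine deaminase genes none passed in CDDO+TPA over TPA, against 15.6% of all genes.

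In the cycle that supplies S-adenosylmethionine, the methyl donor, 1 of 13 measured genes was higher and 1 lower in CDDO+TPA over TPA, near the 7.87% and 7.78% of all genes. Nnmt, a nicotinamide methyltransferase that consumes the donor, had 31.9 CPM in CDDO+TPA, against 11.8 in TPA and 33.8 in control. Gnmt, a glycine methyltransferase, had 9, 69 and 23 reads. Mat2a, the synthetase of the donor, had 183, 155 and 222 CPM and Ahcy, which clears its product, had 127, 71.2 and 97.2 CPM, both below the rule in every comparison. Mtr, methionine synthase, had 36.2, 20.8 and 43.4 CPM and was 2.08-fold lower in TPA than in control (1.73 to 2.52).

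Germline genes known to be silenced by promoter methylation were mostly below 1 CPM. Of 15 such genes, 4 were measured, and Dazl, Mael, Asz1 and Tuba3a had no read in any library. In CDDO+TPA over TPA 1 of the 4 was higher and 0 lower, against 7.87% and 7.78% of all genes. The gene past the rule was Taf7l, a TFIID subunit paralogue of germ cells, with 30, 4 and 58 reads. Taf7l, Brdt, Sycp1, Sycp3, Gnmt, Neil2, Zfp57, Igf2 and Mest were named after their values were seen. Of 15 imprinted genes 8 were measured, with 2 higher and 1 lower in CDDO+TPA over TPA, against 7.87% and 7.78% of all genes. The higher ones were Igf2, a growth factor gene with 24, 7 and 17 reads, and Mest, with 14, 3 and 13 reads. Mest shares 32.9% of its exonic bases with Copg2. The lower one, Plagl1, a zinc finger growth suppressor, had 38.3 CPM in CDDO+TPA, against 135 in TPA and 30.8 in control, and Kcnq1ot1, a long noncoding RNA of the Kcnq1 domain, had 30, 57.6 and 64.6 CPM and was past the rule in CDDO+TPA over control. DNA methylation itself was not analysed here.

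**Figure D5:**
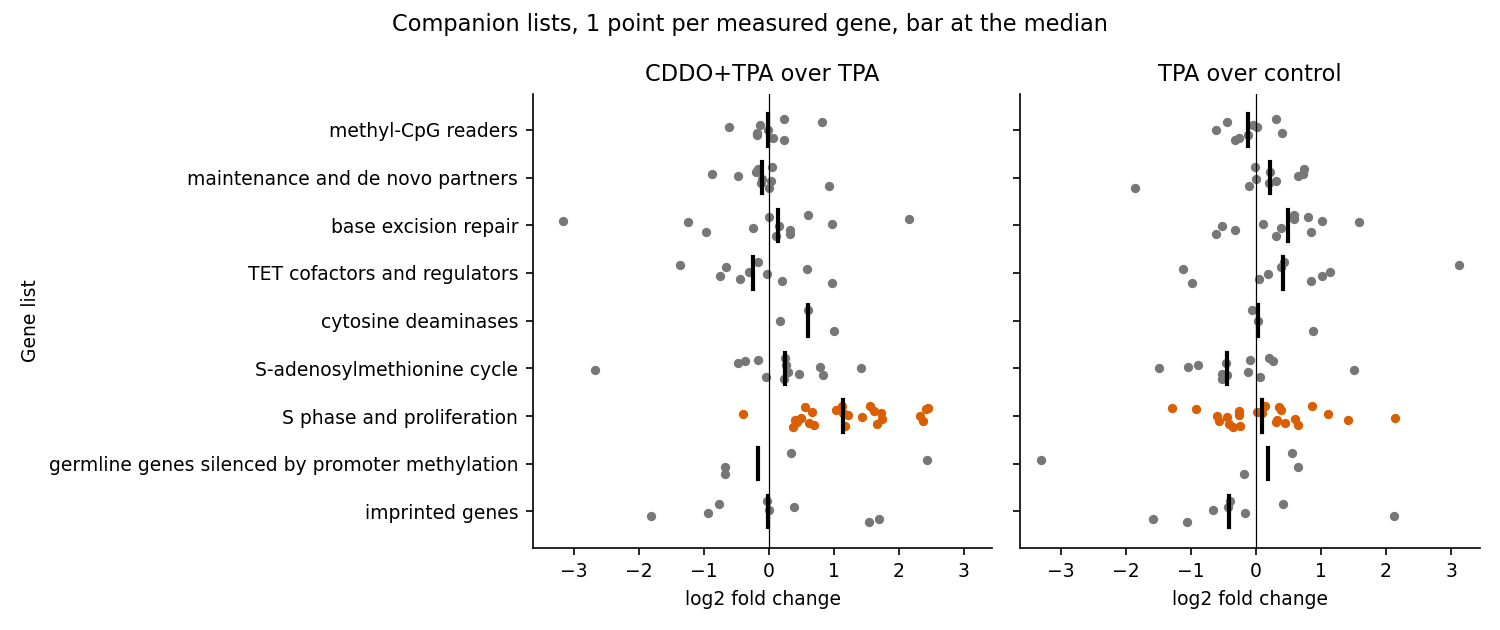
Log2 fold change of each measured gene of the companion lists in CDDO+TPA over TPA (left) and TPA over control (right); bars mark list medians and the S phase list is orange. The median of the S phase and proliferation list is 1.14 on the left and 0.09 on the right.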

How the data were processed

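Total RNA of JB6 P+ cells was sequenced in 3 libraries, 1 per group. The authors deposited raw read counts per gene symbol. Per the file headers, these counts were made with featureCounts 1.5.3, primary alignments only, on a UCSC mm10 annotation, with no option for strand, read pairs or reads on several genes, from files marked as deduplicated. The submitters' processing notes further list HISAT2, Picard and DESeq, with no version. Duplicate removal can cap the counts of abundant genes, and unstranded counting mixes overlapping genes. Exonic length, a further column deposited by the authors, gave RPKM. One column is headed CDDO with no mention of TPA; CDDO occurs in the labels of the CDDO+TPA sample alone, to which the column was assigned. The header command lists 7 alignment files.

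Library totals were scaled by TMM (edgeR 4.0.16, R 4.3.3), with factors of 1.00, 1.02 and 0.978 for CDDO+TPA, TPA and control. Log2 CPM used a prior count of 2, and fold changes on the log2 scale were obtained by subtracting them. Folds are CPM ratios with exact conditional binomial 95% intervals (Clopper-Pearson), and levels have exact Poisson intervals. Intervals and the floor of 3 counts cover counting error only. No p-value was computed. Median ratio factors for an alternative came from DESeq2 1.42.0, without its test. Similar transcripts (at least 90% identity over 100 bases) were sought with BLAST in GENCODE M21, and promoters came from RefSeq, GRCm38.p6.

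The members and lists were chosen with earlier results of these data known. Named were all members, a set of genes named whatever their values, up to 4 genes past the size rule with at least 10 CPM per companion list and comparison, and the 3 genes nearest in pattern to Dnmt1 and Uhrf1. Some genes that this rule selects are not reported here.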

Additional observations from a re-analysis of the deposited data

How the results depend on the processing

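All 150 log2 fold changes of members under other scalings (total reads, upper quartile, median ratio) or prior counts (0.5, 5) lay within their counting intervals, as did 135 of 135 list medians within the median half-width of their genes' intervals. With a size limit of 0.58 instead of 1, members higher numbered 1 (Tet3) in TPA over control and 2 in CDDO+TPA over TPA, where Dnmt1 joined Uhrf1, and members lower numbered 2 in CDDO+TPA over control, where Tet2 joined Tet3; Mbd4 also became higher there. All genes then numbered 2052 higher and 1809 lower in TPA over control, 2017 and 1698 in CDDO+TPA over TPA, and 1767 and 1152 in CDDO+TPA over control. When intervals were widened for a coefficient of variation of 0.4, assumed for separate cultures, Uhrf1 remained higher in both comparisons with CDDO+TPA and Tet3 lower against TPA, whereas Tet2 against TPA, and Dnmt1 and Tet3 against control, were no longer past the rule, which left 1 lower against TPA and 1 higher and 0 lower against control. All genes then numbered 678 and 269, 431 and 581, and 475 and 173 in the same order of comparisons and directions. With a mean of at least 10 CPM they numbered 381 and 476, 522 and 227, and 507 and 165. That filter turned the TPA over control majority from higher (1254 against 774) to lower. Searching genes from 1 CPM kept 1 of the 3 nearest genes of Uhrf1. Depth limits Tet1, Tdg and Dnmt3b. No paired analysis was possible because each group has 1 library.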
